A study of Mus musculus with 6 samples.

Results

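The 10 genes described here encode receptor chains for interleukin-7, interleukin-6, interleukin-12, interleukin-10, interleukin-4, interleukin-21, interleukin-27 and interferon gamma. They were taken by symbol, as Il7r, Il6ra, Il6st, Il12rb1, Il12rb2, Il10ra, Il4ra, Il21r, Il27ra and Ifngr1, and all 10 were found among the 32801 symbols of the expression table. The cells were regulatory T cells (Treg), the Foxp3-expressing CD4+ cells that hold immune responses in check, here taken from the thymus of mice aged 3 weeks by a GFP- CD4+CD8- Thy1.1+ sort. The 3 NOD libraries represent the non-obese diabetic strain, a model of spontaneous autoimmune diabetes, and the 3 B6 libraries the C57BL/6 strain. A library is named by its strain and the number in its column header, as in NOD 2. All 6 share age, organ and sort, the labels used here do not say which alleles the GFP and Thy1.1 markers report, and the labels list no treatment. The values are read counts scaled to a common depth per library, called normalized counts. Nothing in the labels says whether replicates came from separate animals, so p-values measure the spread between these libraries, which may be technical.

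Cytokine receptors of this kind have no enzyme of their own. Chains pair when the cytokine binds, Janus kinases (JAK) held on their tails phosphorylate each other, and STAT transcription factors are activated. Which chains a cell makes therefore sets which cytokines it can respond to: Il6st encodes gp130, the shared signalling chain of the interleukin-6 family, Il12rb1 is shared by the interleukin-12 and interleukin-23 receptors, and Il2rg, the common gamma chain, is shared by the receptors for interleukin-2, 4, 7 and 21. In Treg, interleukin-7 and the common gamma chain cytokines are linked to survival, and interleukin-6, interleukin-12 and interferon gamma to loss or remodelling of suppressor function in inflammation.

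Normalized counts summed to between 16097369 and 17625903, and the estimated number of reads, from the gaps that rounding left, ran from 15500000 in B6 20 to 21600000 in NOD 18. Foxp3, the lineage factor of Treg, lay between 1701 and 2446 normalized counts in all 6 libraries, and the strains overlapped. The 8 identity genes of the sorted cell summed to 110484 to 122802 normalized counts in NOD and 102444 to 115170 in B6, mostly Ctla4 and Ikzf2. Of the 8, 4 (Ctla4, Cd4, Cd3e and Thy1) were higher in every NOD library than in any B6 library, and 2 were called: Thy1, the gene of the sort marker, averaged 5754 in NOD and 2725 in B6 (log2 fold change 1.07 ± 0.11, limma adjusted p = 6.2e-05), and Cd3e 1916 and 1115 (0.77 ± 0.13, 0.0022). The part of these differences in the receptor results was not tested. Of 16442 genes tested with limma, 9.89% were called in either direction at an adjusted p below 0.05, 4.59% higher and 5.3% lower in NOD. The 3 libraries of one strain lay wholly on one side of the other 3 for 24.1% of tested genes.

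Among the 10 chains, Il12rb2, Il6ra and Il27ra were higher in NOD and Il7r was lower, while the other 6 were not called. These 4 of 10 were called where 9.89% of all tested genes were, and they were also the members whose strains did not overlap, beside 24.1% of tested genes. In the authors' deposited table the log2 fold change of all 10 had the same sign as here. There Il12rb2, Il6ra and Il27ra were called higher, and Il7r was not called (adjusted p = 0.0710). The share of all genes called in that table was not computed. Il12rb2 differed most, with a log2 fold change of 1.95, followed by Il6ra with 1.10. The differences of Il27ra (0.40) and Il7r (-0.44) were smaller, and their calls were lost when single libraries were left out. Over the 10 chains the median log2 fold change was 0.14, beside 0.01 over all tested genes. In sorted bulk cells, a larger share of cells that use a gene and more RNA per cell cannot be told apart.

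**Figure D1:**
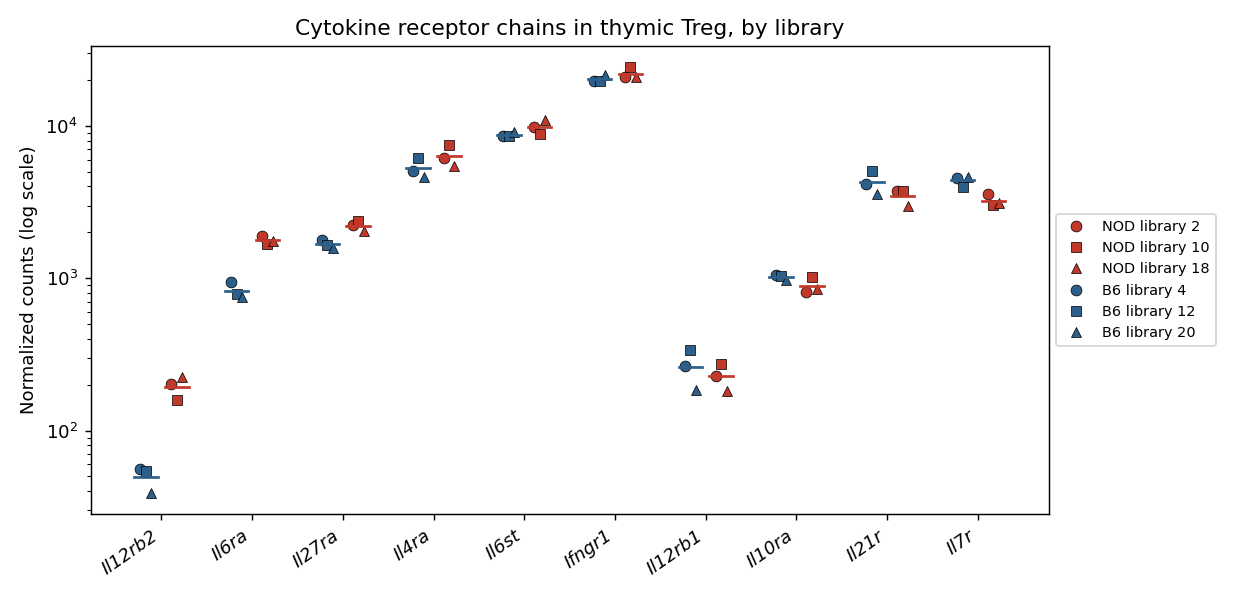
Normalized counts (log scale) of the 10 receptor chains in each of the 6 libraries, ordered from the highest to the lowest fold change; points are libraries (NOD red, B6 blue) and short lines are strain means. The 3 NOD libraries of Il12rb2 sit between 158 and 224 and the 3 B6 libraries between 39 and 56, whereas Ifngr1 overlaps near the top of the scale.

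**Figure D2:**
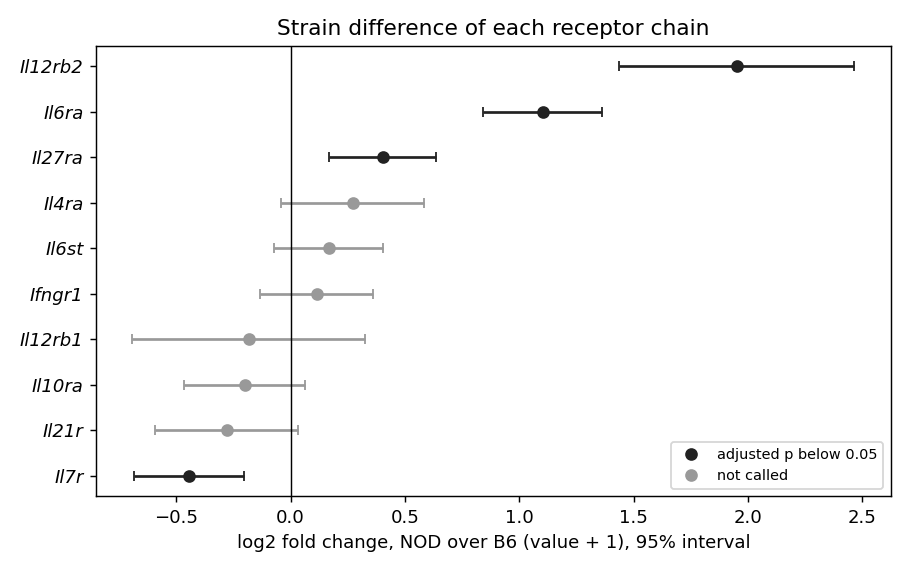
Log2 fold change of NOD over B6 for each chain on the log2(value + 1) scale, with limma's 95% interval; black marks genes called at an adjusted p below 0.05 and grey the others. Il12rb2 and Il6ra lie far to the right of 0, Il27ra and Il7r closer to it on either side, and the intervals of the 6 others cross 0.

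The promoters of the 3 called chains for which RefSeq sequence was at hand are shown side by side because they differ in motif and in base composition. Each runs from 250 bases before to 50 bases after the annotated start on GRCm38.p6, 5' to 3' on the gene's own minus strand, at chr6:67376139-67376438 for Il12rb2, chr15:9529827-9530126 for Il7r and chr3:89913147-89913446 for Il6ra. The starts are those of RefSeq. The Il7r window lies wholly inside the gene as GENCODE M21 places it (9505788 to 9530176), downstream of the GENCODE start. Capitals mark the STAT-type motif TTCNNNGAA.
Il12rb2: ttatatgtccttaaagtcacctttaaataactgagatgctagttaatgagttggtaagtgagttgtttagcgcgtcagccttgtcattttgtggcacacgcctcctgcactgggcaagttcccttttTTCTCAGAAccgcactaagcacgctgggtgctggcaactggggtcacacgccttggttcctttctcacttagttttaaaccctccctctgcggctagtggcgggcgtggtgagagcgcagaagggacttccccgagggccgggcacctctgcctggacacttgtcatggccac
Il7r: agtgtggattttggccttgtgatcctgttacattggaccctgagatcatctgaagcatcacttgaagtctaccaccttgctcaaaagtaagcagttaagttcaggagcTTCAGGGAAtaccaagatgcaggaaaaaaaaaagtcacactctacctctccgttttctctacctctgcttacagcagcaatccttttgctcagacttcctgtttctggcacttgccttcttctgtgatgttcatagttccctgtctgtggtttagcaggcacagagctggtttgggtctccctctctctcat
Il6ra: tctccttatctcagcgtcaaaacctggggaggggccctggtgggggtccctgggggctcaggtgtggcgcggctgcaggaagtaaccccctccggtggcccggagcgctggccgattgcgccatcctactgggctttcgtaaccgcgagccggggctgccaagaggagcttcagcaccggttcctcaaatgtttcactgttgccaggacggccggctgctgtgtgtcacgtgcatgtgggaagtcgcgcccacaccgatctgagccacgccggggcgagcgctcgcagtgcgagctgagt
Il12rb2 and Il7r each held 1 copy of TTCNNNGAA, a motif that is its own reverse complement, and Il6ra held none. It was found in 2 of the 7 member promoters matched and in 8.30% of 32851 mouse promoters of the same length. The FOXO motif GTAAACA, searched on both strands, was found in 1 of the 7, that of Il21r, and in 3.65% of all. The STAT6 motif (TTC, any 4 bases, GAA), the interferon-stimulated element (GAAA, any 2 bases, GAAA) and the T-box motif AGGTGTGA, also searched on both strands, were in 0 of the 7, against 6.95%, 3.44% and 1.28% of all promoters. The Il6ra promoter was 66.0% G and C with 25 CpG pairs, that of Il12rb2 53.0% with 12 and that of Il7r 45.7% with 1, beside a median of 52.7% over all promoters. These are letters of the C57BL/6J reference, the NOD sequence was not read, and a match marks neither a bound site nor a cause.

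Il12rb2 encodes the signal-transducing beta 2 chain of the interleukin-12 receptor, known for directing helper T cells toward interferon gamma production through STAT4. It stood at 202, 158 and 224 normalized counts in NOD 2, 10 and 18 and at 56, 54 and 39 in B6 4, 12 and 20. All NOD libraries were above all B6 libraries, and the lowest NOD value was that of NOD 10. The log2 fold change was 1.95 ± 0.23 (SE, n = 3 each; limma adjusted p = 0.00022), and the call held with any single library left out (adjusted p of 0.00024 to 0.0030). In the authors' deposited table the log2 fold change was 1.98 with an adjusted p of 1.14e-10. The gene (ENSMUSG00000018341.12) lies on chromosome 6 at 67291318 to 67376188 in mm10, and 1519 bases of its exons, 40.0% of their length, overlap exons of Serbp1 on the other strand. Serbp1, which encodes an mRNA-binding protein, averaged 6785 normalized counts in the NOD libraries and 6959 in B6 (log2 fold change -0.033, adjusted p = 0.91). The strand setting of the counting is not given in the sources used here, so the level of Il12rb2 is uncertain.

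Il12rb1, the chain that binds the shared p40 subunit of interleukin-12 and interleukin-23, was not called. The gene (chromosome 8, 70808449 to 70821424) stood at 227, 273 and 181 normalized counts in NOD 2, 10 and 18 and at 264, 337 and 185 in B6 4, 12 and 20. The strains overlapped, and NOD 18 and B6 20 were the lowest of their strains. The log2 fold change was -0.18, with a 95% interval of -0.69 to 0.32 (limma adjusted p = 0.75), and without B6 12 it was 0.018. Il23r, which pairs with Il12rb1 to form the interleukin-23 receptor, is the next protein-coding gene beyond Il12rb2 on chromosome 6 (67422932 to 67491855), 46743 bases away. It stood at 224, 158 and 204 normalized counts in NOD and 93, 121 and 85 in B6. The NOD libraries were again all above the B6 libraries, with a log2 fold change of 0.96 ± 0.21 (adjusted p = 0.013). That call was lost without NOD 2, NOD 18 or B6 4 (adjusted p = 0.070, 0.068 and 0.061).

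Natural killer and gamma-delta T cells also use interleukin-12 and interleukin-23 receptors. Of the tested natural killer and innate lymphoid markers, 2 of 4 were higher in every NOD library than in any B6 library. Of the tested gamma-delta markers, 2 of 6 were. Among all 16442 tested genes, 1995 were higher in this way, and 24.1% were apart in either direction. All 8 natural killer and innate lymphoid markers were in the table, and they summed to 11587 to 16488 normalized counts in NOD and 12330 to 12716 in B6. Most of that was Il1rl1, the interleukin-33 receptor, which Treg make too (11382 to 16319 over the 6 libraries). Gzma, a granzyme gene, stood at 47 to 52 in NOD and 8 to 23 in B6, and Eomes, a T-box factor, at 21 to 76 and 6 to 17. Ncr1, a defining natural killer receptor, was at 0 in 4 libraries and at most 9. All of that list but Gzma and Eomes overlapped between strains: Ncr1, Klrb1c, Klrk1, Klra8, Prf1 and Il1rl1. Of these, Klrb1c (4.67 in NOD and 6.00 in B6 on average) had the lower NOD mean and the rest higher ones. The 7 gamma-delta markers summed to 100 to 163 in NOD and 110 to 112 in B6, and of these Sox13 stood at 13 to 21 against 0 to 5 and Tcrg-C4 at 14 to 21 against 1 to 4. The other 5 overlapped between strains: Tcrg-C1 (16.7 in NOD and 24.0 in B6 on average) and Blk (30.3 and 44.0) had lower NOD means, Tcrg-C2 equal ones, and Trdc (27.7 and 22.7) and Il17a (11.3 and 10.7) slightly higher ones. The part of these cells in the Il12rb2 and Il23r differences was not tested.

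Il6ra encodes the ligand-binding chain of the interleukin-6 receptor, which can also be shed from the membrane. It stood at 1880, 1683 and 1768 normalized counts in NOD 2, 10 and 18 and at 943, 790 and 758 in B6 4, 12 and 20. Every NOD library was well above every B6 library, and the spread within either strain was small beside the gap. The log2 fold change was 1.10 ± 0.12 (SE; limma adjusted p = 9.4e-05), and it stayed between 1.04 and 1.20 with any single library left out (adjusted p of 0.00014 to 0.0013). The gene (ENSMUSG00000027947.11) lies on chromosome 3 at 89864059 to 89913196 in mm10. Of its exon bases, 2.80% overlap the antisense transcript Gm42809, which averaged 30.3 normalized counts over the NOD libraries and 28.7 over B6.

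Il6st, the gp130 chain through which interleukin-6 and interleukin-27 signal, was not called. The gene (chromosome 13, 112464070 to 112510086) stood at 9888, 8790 and 10861 normalized counts in NOD 2, 10 and 18 and at 8555, 8545 and 9118 in B6 4, 12 and 20. The strains overlapped through NOD 10. The log2 fold change was 0.17, with a 95% interval of -0.07 to 0.41 (limma adjusted p = 0.46). Its neighbour Ankrd55, an ankyrin repeat gene 80067 bases away on chromosome 13, was higher in NOD, at 548, 715 and 542 against 321, 302 and 305 normalized counts (0.95 ± 0.14, adjusted p = 0.0013). Taking the nearest protein-coding gene on each side of the 10 chains, a set looked at after values were known, 14 genes other than members were tested, and Ankrd55 and Il23r were the 2 called higher, with 0 lower, where 4.59% and 5.3% of all tested genes were.

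Il27ra pairs with gp130 to form the interleukin-27 receptor. It stood at 2244, 2362 and 2036 normalized counts in NOD 2, 10 and 18 and at 1783, 1656 and 1580 in B6 4, 12 and 20. The NOD libraries were all above the B6 libraries, by a margin smaller than for Il6ra. The log2 fold change was 0.40 ± 0.11 (SE; limma adjusted p = 0.033). The call was lost with any of the 6 libraries left out: the adjusted p was 0.12 without NOD 2, 0.066 without NOD 10, 0.056 without NOD 18, 0.066 without B6 4, 0.10 without B6 12 and 0.084 without B6 20. Without the variance trend it was 0.14. The authors' deposited table gave 0.40 with an adjusted p of 0.0103. The gene (ENSMUSG00000005465.9) lies on chromosome 8 at 84030294 to 84042589 in mm10.

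Il7r encodes the interleukin-7 receptor alpha chain, which also serves the receptor for thymic stromal lymphopoietin and marks T cells that depend on interleukin-7. It stood at 3554, 3035 and 3113 normalized counts in NOD 2, 10 and 18 and at 4572, 3974 and 4648 in B6 4, 12 and 20. Each NOD library was below each B6 library, and NOD 2 and B6 12 came nearest to each other. The log2 fold change was -0.44 ± 0.11 (SE; limma adjusted p = 0.024). The call was lost without NOD 18, B6 4 or B6 20 (adjusted p = 0.11, 0.11 and 0.070), in a range of 0.030 to 0.11 over the 6 omissions, and without the variance trend it was 0.13. The authors' deposited table gave -0.44 with an adjusted p of 0.0710. The gene (ENSMUSG00000003882.5) lies on chromosome 15 at 9505788 to 9530176 in mm10. Of thymocyte markers that could mark other stages in the sort, Cd8a stood at 35 to 124 in NOD and 10 to 18 in B6. It alone was above B6 in every NOD library. Rag1, needed for receptor gene rearrangement (49 to 67 in NOD and 100 to 155 in B6), Dntt (8 to 17 and 25 to 34) and Arpp21 (5 to 20 and 24 to 33) were below B6 in every NOD library. All 10 markers of that list were in the table and summed to 2447 to 2970 in NOD and 2193 to 2458 in B6. Most of that sum was Cd1d1 (1104 to 1454 and 968 to 1157) and Themis (764 to 999 and 772 to 918), which overlapped between strains. Ptcra, the pre-T cell receptor chain, was at 0 in 5 libraries. The part of these markers in the Il7r difference was not tested.

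Il4ra and Il21r, the ligand-specific chains for interleukin-4 and interleukin-21, are adjacent genes on chromosome 7, with 23954 bases between them. Il4ra (125552120 to 125579474) stood at 6141, 7524 and 5439 normalized counts in NOD 2, 10 and 18 and at 5031, 6145 and 4625 in B6 4, 12 and 20. Il21r (125603429 to 125633570) stood at 3734, 3744 and 2987 in NOD and at 4145, 5049 and 3560 in B6. Both genes overlapped between strains. B cells also make these chains, and the 8 B cell markers, mostly the immunoglobulin gene Ighm, summed to 5150 to 5652 normalized counts in NOD and 3639 to 4121 in B6; their part in the values of Il4ra and Il21r was not tested. The log2 fold changes of the chains had opposite signs, 0.27 for Il4ra (95% interval -0.04 to 0.58, limma adjusted p = 0.34) and -0.28 for Il21r (-0.59 to 0.03, adjusted p = 0.32). The antisense transcript Gm44876, at 7 to 25 normalized counts, overlaps 9.51% of the exon bases of Il4ra. Within each strain the chains ranked alike: B6 12 was highest and B6 20 lowest for both, and NOD 10 was highest and NOD 18 lowest for both.

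Il10ra encodes the ligand-binding chain for interleukin-10, a suppressive cytokine that Treg both make and sense. The gene (chromosome 9, 45253837 to 45269149) stood at 812, 1024 and 847 normalized counts in NOD 2, 10 and 18 and at 1054, 1040 and 977 in B6 4, 12 and 20. NOD 10 lay among the B6 values and the other 2 NOD libraries below them, and the log2 fold change was -0.20 (95% interval -0.47 to 0.07, limma adjusted p = 0.42). Ifngr1, the ligand-binding chain for interferon gamma, was the most abundant of the 10 per kilobase of exon. The gene (chromosome 10, 19591949 to 19610229) stood at 20840, 24251 and 20820 normalized counts in NOD and at 19589, 19636 and 21598 in B6, overlapping between strains, with a log2 fold change of 0.11 (95% interval -0.13 to 0.36, adjusted p = 0.67).

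The spread within a strain was widest for Il12rb1. Its log2(value + 1) lay 0.40 above the B6 mean in B6 12 and 0.46 below it in B6 20, and 0.29 above the NOD mean in NOD 10 and 0.31 below it in NOD 18. Il4ra, Il21r and Il12rb1 were each highest in NOD 10 and B6 12 and lowest in NOD 18 and B6 20. Il7r, Il6ra and Il12rb2 were ordered otherwise. NOD 10 was the highest of its strain for 6 chains and the lowest for 4, and B6 20 was the lowest for 7. What the column numbers stand for is not given in the sources used here.

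**Figure D3:**
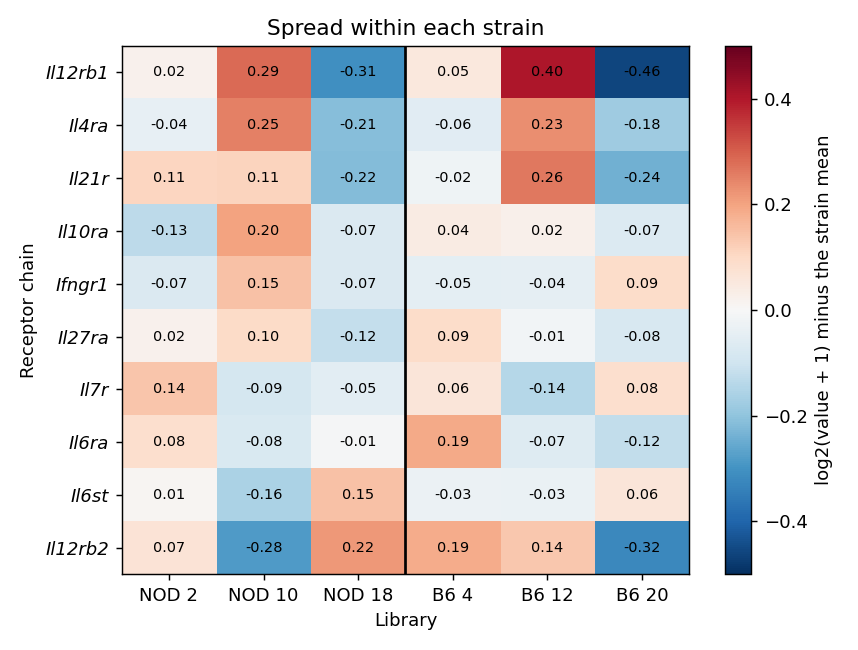
Deviation of each library from its strain mean on the log2(value + 1) scale, for each chain; red is above and blue below the mean, with the value in each cell. Il12rb1, Il4ra and Il21r are above the mean in NOD 10 and B6 12 and below it in NOD 18 and B6 20.

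Levels of different genes were set side by side per kilobase of exon, using the union of exons in GENCODE M21. In B6, Ifngr1 led with 7121 ± 403 normalized counts per kilobase (SD, n = 3), followed by Il21r (1279 ± 226), Il7r (943 ± 79.2), Il4ra (878 ± 131), Il6st (787 ± 29.5), Il27ra (479 ± 29.3), Il10ra (293 ± 11.7), Il6ra (96.1 ± 11.4), Il12rb1 (63.8 ± 18.5) and Il12rb2 (13.1 ± 2.45). The library ranges of Il7r and Il4ra overlapped, as did those of Il4ra and Il6st, while all other neighbours in that order were apart. In NOD, Ifngr1 was again first at 7717 ± 694 per kilobase and Il12rb2 again last at 51.3 ± 8.86, but Il7r now came after Il4ra (1061 ± 177), Il21r (1049 ± 131) and Il6st (887 ± 93.4). In NOD the ranges of Il12rb1 (55.3 ± 11.2) and Il12rb2 overlapped, as did those of Il4ra and Il21r, Il21r and Il6st, and Il7r and Il27ra. If all Il12rb2 counts came from the 2275 exon bases it does not share with Serbp1, its level would be 85.6 ± 14.8 per kilobase in NOD, above Il12rb1, and 21.8 ± 4.08 in B6, below it.

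Ratios between partner chains put these levels in terms of receptor pairs. Il12rb2 over Il12rb1, per kilobase, was 0.96, 0.63 and 1.34 in NOD 2, 10 and 18 and 0.23, 0.17 and 0.23 in B6 4, 12 and 20. The strains were apart, as they were for Il6ra over Il6st, at 0.24, 0.25 and 0.21 in NOD against 0.14, 0.12 and 0.11 in B6. Il7r over Il2rg was also apart, at 0.69, 0.74 and 0.79 in NOD against 1.25, 1.20 and 1.18 in B6. Il12rb2, Il6ra and Il7r were themselves apart between strains and their partners overlapped, so these separations largely repeat the same values. Il2rg itself stood at 2643, 2111 and 2011 normalized counts in NOD and 1874, 1702 and 2024 in B6 and was not called (log2 fold change 0.27 ± 0.13, limma adjusted p = 0.27). The ratios of Il27ra to Il6st, of Il21r and Il4ra to Il2rg, of Il10ra to Il10rb and of Ifngr1 to Ifngr2 overlapped between strains. Ifngr1 exceeded Ifngr2, the signalling partner whose level limits interferon gamma responses in T cells, 34.3 ± 6.73 times in NOD and 40.2 ± 4.06 times in B6.

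**Figure D4:**
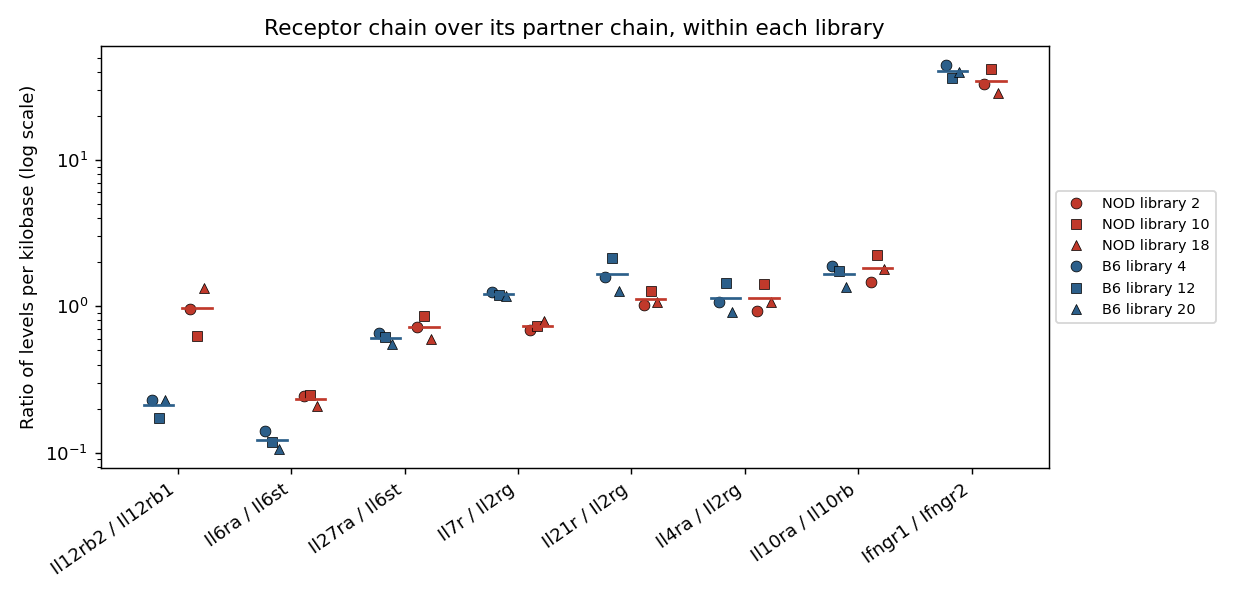
Ratio (log scale) of each chain's level per kilobase of exon to that of its partner within each library; points are libraries and short lines are strain means. Il12rb2 over Il12rb1, Il6ra over Il6st and Il7r over Il2rg separate the strains, and the other 5 pairs overlap. The numerators of the separated pairs were themselves apart between strains.

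Of 14 other chains of the same receptor families, 13 were tested, 1 was higher and 2 were lower in NOD (3 called, where 9.89% of all tested genes were), with a median log2 fold change of -0.13. Il23r was the higher one. Il2rb, the beta chain shared by the interleukin-2 and interleukin-15 receptors, stood at 13024, 15038 and 12477 normalized counts in NOD and 18100, 19780 and 17654 in B6 (-0.46 ± 0.11, limma adjusted p = 0.024). Il11ra1, the interleukin-11 receptor alpha chain, stood at 32, 42 and 31 against 55, 100 and 85 (-1.14 ± 0.30, adjusted p = 0.032), and near-identical copies of that gene in the mouse make its value uncertain. Both were below B6 in every NOD library. The call of Il2rb was lost without NOD 2, NOD 18, B6 4 or B6 12 (adjusted p = 0.097, 0.12, 0.067 and 0.11). That of Il11ra1 was lost without NOD 2, NOD 18, B6 12 or B6 20 (0.0991, 0.12, 0.138 and 0.0847). Ifngr2 (0.35 ± 0.13, adjusted p = 0.16), Il10rb (-0.34 ± 0.14, 0.19) and Crlf2 (-1.03 ± 0.38, 0.14), the partner of Il7r in the receptor for thymic stromal lymphopoietin, were not called. Crlf2 stood at 63, 215 and 90 in NOD and 278, 238 and 160 in B6, and without NOD 10 it was called (adjusted p = 0.0031, in a range of 0.0031 to 0.41 over the 6 omissions).

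Most ligands of these receptors were near silent in the sorted cells. Of 13 cytokine genes listed, 7 fell below the filter, with 0 to 11 normalized counts per library. Of the 6 tested, 1 was called lower and 0 higher, against 5.3% and 4.59% of all tested genes. That gene was Il6. It stood at 0, 1 and 1 normalized counts in NOD 2, 10 and 18 and at 73, 125 and 281 in B6 4, 12 and 20 (limma adjusted p = 1.7e-05, and 2.4e-05 to 0.00046 with any single library left out). The transcript was thus all but absent from NOD, where Il6ra was higher, and uneven among B6 libraries, with B6 20 highest. Macrophages, dendritic cells and thymic stroma also make interleukin-6. All 12 myeloid markers were in the table and summed to 123 to 211 normalized counts in NOD and 156 to 269 in B6. Of the 12, 7 averaged under 10. Tyrobp (3 to 13 against 18 to 44), Adgre1 (0 to 2 against 9 to 22), Fcer1g (3 to 5 against 6 to 25) and C1qa (0 to 1 against 2 to 8) were below B6 in every NOD library. Tyrobp, Adgre1 and Fcer1g were highest in B6 20, as Il6 was, and C1qa in B6 4. Csf1r overlapped between strains, at 15 to 19 against 14 to 25, as did Lyz2, Fcgr3, C1qb and S100a8, all with lower NOD means. Mpeg1, the largest contributor to the myeloid sum in NOD, went the other way, at 80 to 116 against 35 to 77. Cd14 overlapped (2 to 19 against 2 to 15) with the higher mean in NOD, and Itgam had equal means. The 11 dendritic cell markers summed to 1106 to 1391 against 1648 to 1750, mostly Zbtb46 (852 in NOD and 1190 in B6 on average). Of the 11, 6 averaged under 10. H2-Aa (51.0 and 141) and H2-Ab1 (51.0 and 93.3) were, like Zbtb46, below B6 in every NOD library. H2-Eb1 had the higher mean in NOD (251 and 155). The 9 epithelial and stromal markers summed to 179 to 250 against 255 to 336, mostly Epcam (149 to 218 and 195 to 285), which overlapped between strains. Of the 9, 7 averaged under 10. Aire, of the medullary epithelium (2 to 5 and 12 to 23), and Psmb11 (2 to 5 and 6 to 9) were below B6 in every NOD library. Col3a1, Col1a1 and Krt5 had higher means in NOD and the rest lower ones. Col3a1 was at 37 in NOD 2 and at 0 or 1 elsewhere. No listed marker was at 0 in all 6 libraries, and the part of these cells in the Il6 difference was not tested. Il10, the one ligand here made at a high level, stood at 1096, 1948 and 1251 in NOD and 1170, 1475 and 983 in B6 and was not called (0.22 ± 0.21, adjusted p = 0.65). Ifng, which encodes interferon gamma, stood at 54, 78 and 43 in NOD and 35, 36 and 30 in B6. Its strains were apart, but it was not called.

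Downstream of the receptors, Stat3 was lower in NOD. STAT3 carries the signals of interleukin-6, 10, 21 and 27. Stat3 stood at 16647, 17847 and 14069 normalized counts in NOD 2, 10 and 18 and at 25362, 24676 and 24187 in B6 4, 12 and 20. All NOD libraries were below all B6 libraries, with a log2 fold change of -0.62 ± 0.12 (limma adjusted p = 0.0052), and the call held with any single library left out (0.0025 to 0.031), though without the variance trend the adjusted p was 0.051. Stat2 (-0.11), Stat4 (-0.14), Stat5a (-0.36), Stat5b (-0.053) and Stat6 (-0.021) were not called, although Stat5a was called lower without NOD 10 (adjusted p = 0.0064, in a range of 0.0064 to 0.50). The exons of Stat3 and Stat5a share 72 bases on opposite strands. Of the 4 Janus kinase genes, Jak1 (0.10), Jak2 (-0.10), Jak3 (-0.11) and Tyk2 (-0.19), 0 passed limma's threshold and 0 reached an unadjusted p below 0.05. Among all 16442 tested genes, 9.89% passed the threshold and 3340 reached an unadjusted p below 0.05. In the authors' deposited table the adjusted p-values of the 4, in that order, were 0.55, 0.87, 0.90 and 0.48.

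Among 18 regulators that restrain these receptors or cut them from the membrane, 3 were higher and 1 was lower in NOD, against 4.59% and 5.3% of all tested genes, with a median log2 fold change of -0.01. Adam17, a metalloprotease known to shed the interleukin-6 receptor, stood at 3549, 3354 and 2987 normalized counts in NOD and 2126, 2052 and 2330 in B6 (0.60 ± 0.11, limma adjusted p = 0.0035). Its call held with any single library left out (0.0064 to 0.024). Socs4 (0.90 ± 0.22, adjusted p = 0.022) and Socs5 (0.56 ± 0.15, 0.037), members of the suppressor of cytokine signalling family, were higher. Socs4 stood at 1601, 1034 and 1694 against 783, 564 and 976 normalized counts, and Socs5 at 1956, 1567 and 2385 against 1363, 1190 and 1415. Cish, a STAT5-induced inhibitor, was lower, at 1650, 2139 and 1434 against 2534, 2842 and 2371 (-0.58 ± 0.15, adjusted p = 0.025). The calls of Socs4, Socs5 and Cish were all lost without NOD 2 (adjusted p = 0.084, 0.11 and 0.089), NOD 18 (0.11, 0.17 and 0.13), B6 4 (0.076, 0.10 and 0.087) or B6 12 (0.097, 0.15 and 0.12), and that of Socs5 without B6 20 (0.059).

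**Figure D5:**
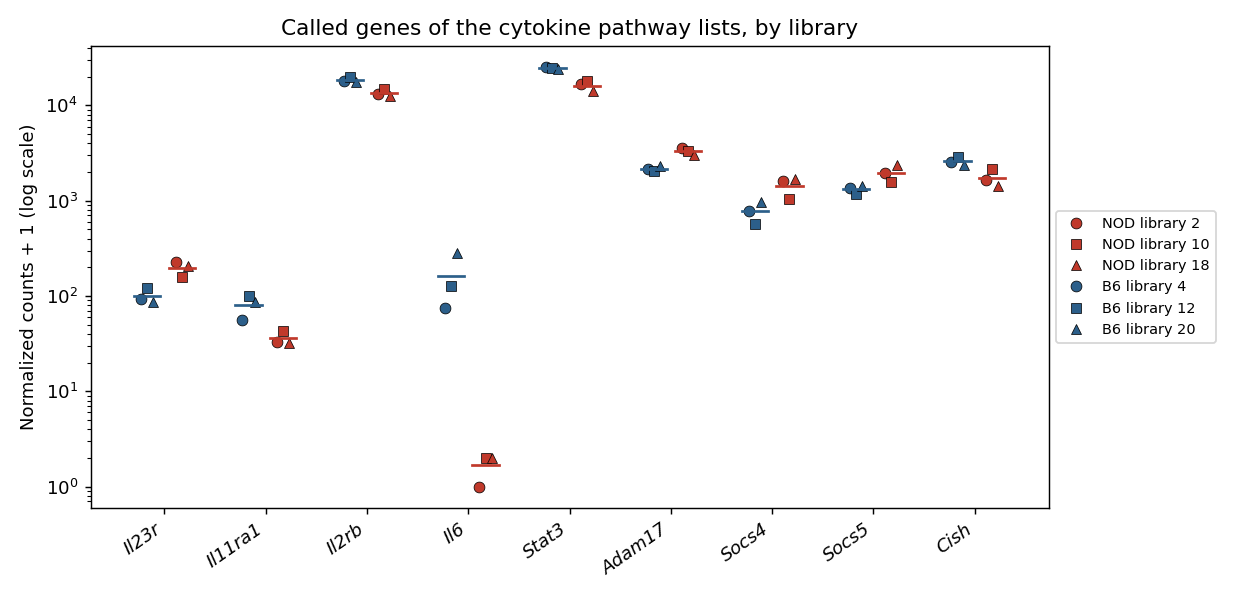
Normalized counts plus 1 (log scale) of 9 called genes of the receptor partner, ligand, STAT and inhibitor lists in each library; points are libraries and short lines are strain means. Il6 is at 0 or 1 normalized count in NOD and at 73 to 281 in B6, and Stat3 and Adam17 separate the strains in opposite directions.

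Genes that act on or after these receptors are given by list. Of 12 transcription factors known to act on Il7r or Il12rb2 in T cells, 0 passed limma's threshold and 2 reached an unadjusted p below 0.05. Of all 16442 tested genes, 9.89% passed that threshold and 3340 reached an unadjusted p below 0.05. The authors' deposited table has 2 of the 12 called higher, Eomes and Tbx21, and its share over all genes was not computed. The list is not stable at the threshold: 1 was called higher with a pseudocount of 5, with quantile normalization or without B6 12, 2 without NOD 10 and 3 with array weights. In these settings, in that order, 779, 757, 602, 763 and 1247 of all tested genes were called higher, against 755 in the main fit. The genes tested numbered 16442, or 16887 without B6 12 and 17000 without NOD 10. Ets1 was not called (0.15 ± 0.13, limma adjusted p = 0.62). Eomes, named here for having the largest difference of the list, stood at 76, 21 and 59 normalized counts in NOD and 17, 16 and 6 in B6 (1.86 ± 0.53, adjusted p = 0.0501, and 0.0080 without NOD 10 in a range of 0.0080 to 0.21). The authors' deposited table called it higher, with an adjusted p of 5.5e-05. Foxo1, an activator of Il7r, and Tbx21, the T-box factor T-bet linked to Il12rb2, were picked out once their values were known. Foxo1 stood at 3871, 2788 and 3729 normalized counts in NOD and 2824, 2799 and 2873 in B6 (0.28 ± 0.13, adjusted p = 0.26, and 0.017 without NOD 10 in a range of 0.017 to 0.63). Tbx21 stood at 138, 166 and 141 against 79, 117 and 53 (0.90 ± 0.27, adjusted p = 0.067, and 0.020 without B6 12 in a range of 0.020 to 0.17). Of 14 tested genes induced by interferon gamma, 4 were higher and 0 lower, against 4.59% and 5.3% of all tested genes, and all 4 were guanylate-binding protein genes. Gbp2 (1.60 ± 0.14), Gbp5 (1.23 ± 0.12) and Gbp3 changed most. Gbp3 stood at 6363, 8742 and 5316 normalized counts in NOD and 3018, 3743 and 3256 in B6 (adjusted p = 0.0021). These genes have close paralogs with which reads can be shared, and Irf1 was not called (0.19 ± 0.16, adjusted p = 0.61).

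Of 14 tested genes induced through STAT3, 2 were higher and 0 lower, against 4.59% and 5.3% of all tested genes. They were Il23r and Ahr, the aryl hydrocarbon receptor, which stood at 2504, 1657 and 1567 normalized counts in NOD and 1127, 1195 and 1004 in B6 (0.75 ± 0.17, limma adjusted p = 0.013). The call of Ahr was lost without B6 4 or B6 20 (adjusted p = 0.054 and 0.056). Rora, a nuclear receptor gene, stood at 20484, 17836 and 16315 against 26950, 28441 and 20700 and was not called (-0.47 ± 0.14, adjusted p = 0.065), though it was without B6 20 (0.016, in a range of 0.016 to 0.24). Of 14 tested genes induced by interleukin-7 or interleukin-4, 3 were higher and 1, Cish, was lower, against the same 4.59% and 5.3%. Ccnd3, a D-type cyclin gene (0.70 ± 0.12, adjusted p = 0.0027), Pim2, a survival kinase gene (0.56 ± 0.13, 0.019), and Mcl1, an anti-apoptotic gene (0.35 ± 0.10, 0.045), were higher. Pim2 lost its call without NOD 18, B6 4 or B6 12 (adjusted p = 0.11, 0.0629 and 0.0753), and Mcl1 without NOD 2, NOD 18, B6 4 or B6 12 (0.15, 0.15, 0.13 and 0.17). The lists share members, since Il23r, Cish, Il4ra and others stand in more than one.

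The genes whose log2 values ran most like those of the 4 called chains over the 6 libraries were listed for description only, since the strain gap itself makes such values high. For Il12rb2 they were Dnah8 (Pearson r of 0.999), Tbc1d23 (0.997) and Agfg1 (0.990), and for Il6ra they were Rbm45 (0.997), BC018473 (0.996) and Agfg1 (0.995). For Il27ra they were Exoc6 (0.995), Vps54 (0.991) and Rab3gap1 (0.989), and for Il7r they were Trpv2 (0.995), Serinc5 (0.990) and Ulk3 (0.989). Agfg1 was the one gene named for 2 chains.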

How the data were processed

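RNA of 6 sorted Treg libraries was sequenced. Kits named per the labels' protocols were miRNeasy micro for total RNA and TruSeq Standard Total RNA for libraries. Per the submitters' processing notes, Trimmomatic, STAR, DESeq2 and mm10 were used. As mm10 is the C57BL/6J reference, NOD sequence variants may affect the NOD counts, and this was not tested. For the counter, its annotation and strand setting, the sources used here give nothing. The 6 sample columns are marked as normalized, per the file headers, and hold scores deposited as whole numbers; low values skip or double whole numbers, as counts divided by a size factor and rounded do, so no count test was run. The authors also deposited a log2 fold change with its standard error, p-value, adjusted p-value, test statistic and mean (a score); that mean is 0.603 to 1.39 times that of the 6 columns for the chains, so it was not taken over these columns alone. Columns were tied to strain, not replicate, and 0 sample columns were left unused.

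Genes reaching 10 normalized counts in 3 or more libraries (2 with one left out) were fitted on log2(value + 1) with limma 3.58.1 (R 4.3.3, trended empirical Bayes), two-sided, with Benjamini-Hochberg adjustment over 16442 genes and calls below 0.05; the fit was tested on simulated data. The SD is over libraries and the SE is limma's. The log2(value + 1) scale understates changes of low genes. Members and lists were chosen with earlier results of these data known. All members are named; from each list, up to 3 called genes per direction and a few others; 1 result is not reported here. Coordinates and exon lengths are from GENCODE M21 (GRCm38, as mm10), and promoters from RefSeq on GRCm38.p6, with 7 of 10 members matched.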

Additional observations from a re-analysis of the deposited data

How the results depend on the processing

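Il12rb2 and Il6ra kept their direction and call under every alternative run: pseudocounts of 5 and 0.5, no filter, a minimum of 50, median-of-ratios scaling, quantile normalization, no trend, array weights, each library left out and the block below. Without the trend, 2 of the 10 chains were called, 0 of them lower. Of all 16442 genes, 528 were then called higher and 638 lower, against 755 and 871 with the trend. Il27ra (adjusted p = 0.14) and Il7r (0.13) were lost, as was Stat3 (0.051). Also lost were Il2rb, Il11ra1, Socs4, Socs5, Cish, Ahr, Pim2 and Mcl1 (0.055 to 0.17). Array weights brought Ifngr2, Crlf2, Stat5a, Foxo1, Tbx21, Rora and Eomes past the threshold (0.0034 to 0.033), and a pseudocount of 5 or quantile normalization Eomes alone (0.041 and 0.045). Without a filter Il27ra (0.053) and Mcl1 (0.079) missed the threshold. With single libraries left out, 2 to 3 chains were called, 2 of them higher each time and 0 to 1 lower (0 without NOD 18, B6 4 or B6 20), while 490 (without NOD 18) to 781 of all genes were called higher and 569 (without B6 4) to 1011 lower. Array weights raised those counts from 755 and 871 to 1247 and 1434. Sign changes were seen among uncalled genes with a library left out: Il12rb1 ran from -0.41 to 0.018, Il10 from -0.026 to 0.39, Jak3 from -0.27 to 0.034, Stat5b from -0.13 to 0.037 and Stat6 from -0.10 to 0.059. The cause was not tested. No paired analysis was possible because the columns carry none of the labels' replicate numbers. As a stand-in, a replicate block by the order of the column numbers, added after seeing the data, called the same 3 higher and 1 lower chains and 955 and 1072 of all genes, and brought Crlf2 (0.038), Stat5a (0.044), Tbx21 (0.022), Rora (0.0052) and Eomes (0.023) past the threshold; deviations of the libraries so paired correlated at 0.01, 0.18 and 0.13. Calls of low genes such as Il12rb2 in B6 rest on few reads.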
